A study of Mus musculus with 8 samples.

Results

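The acyl-CoA thioesterases studied here are 10 genes of the mouse Acot family, taken by name from a table of 21049 gene symbols, and all 10 were found. They were sorted by the compartment in which the enzyme works: Acot1, Acot7, Acot11 and Acot12 in the cytosol, Acot2, Acot9 and Acot13 in the mitochondrion, and Acot3, Acot4 and Acot8 in the peroxisome. RNA was sequenced from 8 wild-type samples labelled as liver, 4 given saline (control) and 4 given alcohol, and the design text describes C57BL/6 mice and an alcohol-fed group. The labels name hepatocytes and also AML12, a mouse hepatocyte cell line, for the same samples. The sources used here do not give age, sex, alcohol dose or feeding time. They do not say either whether the samples are separate animals, and every p-value here therefore describes spread among these 8 libraries, some of which may be technical.

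An acyl-CoA thioesterase cuts an activated fatty acid, acyl-CoA, back into a free fatty acid and coenzyme A. It undoes the step by which acyl-CoA synthetases trap fatty acids for oxidation or for triglyceride synthesis, and so sets how much acyl-CoA and free coenzyme A a compartment holds. The liver runs fatty acid oxidation in both mitochondria and peroxisomes, and each compartment has thioesterases of its own. The type I enzymes (Acot1 to Acot6) are near copies of each other in 1 gene cluster, while the type II enzymes (Acot7 to Acot13) have a different fold and lie on several chromosomes. Several type I genes are known targets of PPARA, the nuclear receptor that fatty acids activate in the liver.

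Values are FPKM, which divides reads by gene length and by library size, so levels can be set side by side between genes as far as the gene lengths used were right. Library totals recovered from the values ran from 33872595 to 34789814 reads in controls and from 37132631 to 38407511 reads with alcohol. The sum of FPKM over all genes was lowest in control replicate 1, alcohol replicate 1 and alcohol replicate 3 (483138 to 517209, against 521300 to 576544 in the other 5 libraries). Alcohol replicates 2 and 4 were more alike than any other pair, with a chi-square per gene of 7.63 between their reads, where sampling noise alone gives about 1 and the other pairs within a group gave 38.7 to 154. They were counted as separate samples, and a shared source would make the p-values too small. Hepatocyte markers were abundant in every library, with Alb at 35561 to 46022 FPKM. Of the 6 hepatocyte markers 2 were higher and 2 lower with alcohol by limma, where 44.2% of all 9228 genes tested were higher and 13.0% lower. The summed level of the 6 markers was 56208 to 64536 FPKM in controls and 52390 to 62099 FPKM with alcohol. Markers of other liver cells were present in the same libraries, beside the labels' hepatocyte line. The endothelial markers moved with the groups: all 7 of 7 were higher with alcohol, and their summed level was 14.1 to 21.1 FPKM in controls and 64.2 to 76.6 FPKM with alcohol. Of 8 stellate cell markers 4 were higher and 2 lower, too few to set apart from those shares of all genes. Of the 6 tested Kupffer cell and macrophage markers none was called by limma. All 9 listed markers of these cells summed to 40.2 to 128 FPKM in controls and 49.4 to 85.8 FPKM with alcohol. The part of endothelial, stellate and Kupffer cells in the results below was not tested. In bulk RNA, a change in the number of cells of a type and a change in RNA per cell cannot be told apart.

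The mitochondrial and peroxisomal thioesterases held all of the called changes, and Acot2 stood far apart from the rest. Of the 10 members, 9 averaged 1 FPKM or more over the 8 libraries and were tested by limma on log2(FPKM + 1). With alcohol 3 of the 9 were higher (Acot2, Acot4 and Acot9), 1 was lower (Acot8) and 5 were not called, with a Benjamini-Hochberg adjusted p of 0.05 as the threshold. Of all 9228 genes tested, 44.2% were called higher and 13.0% lower, so these counts lie near the background and are no result about the family. The groups did not overlap for the same 4 members, 3 upward and 1 downward, where 39.5% of all genes tested were wholly higher and 10.7% wholly lower. That background depends on the scaling: 77.2% of all called genes were higher on the FPKM scale, 85.7% on the TPM scale and 49.4% with median-of-ratios scaling (2386 higher and 2446 lower), which sets the median change of all genes to 0.00. The median log2 change of the 9 was 0.07, and that of all genes tested was 0.24. None of the 3 tested cytosolic members was called, 2 of 3 mitochondrial members were higher, and the 3 peroxisomal members gave 1 higher, 1 lower and 1 not called. Whether the compartments differ from each other was not tested, since the groups hold 3 or 4 genes each.

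**Figure D1:**
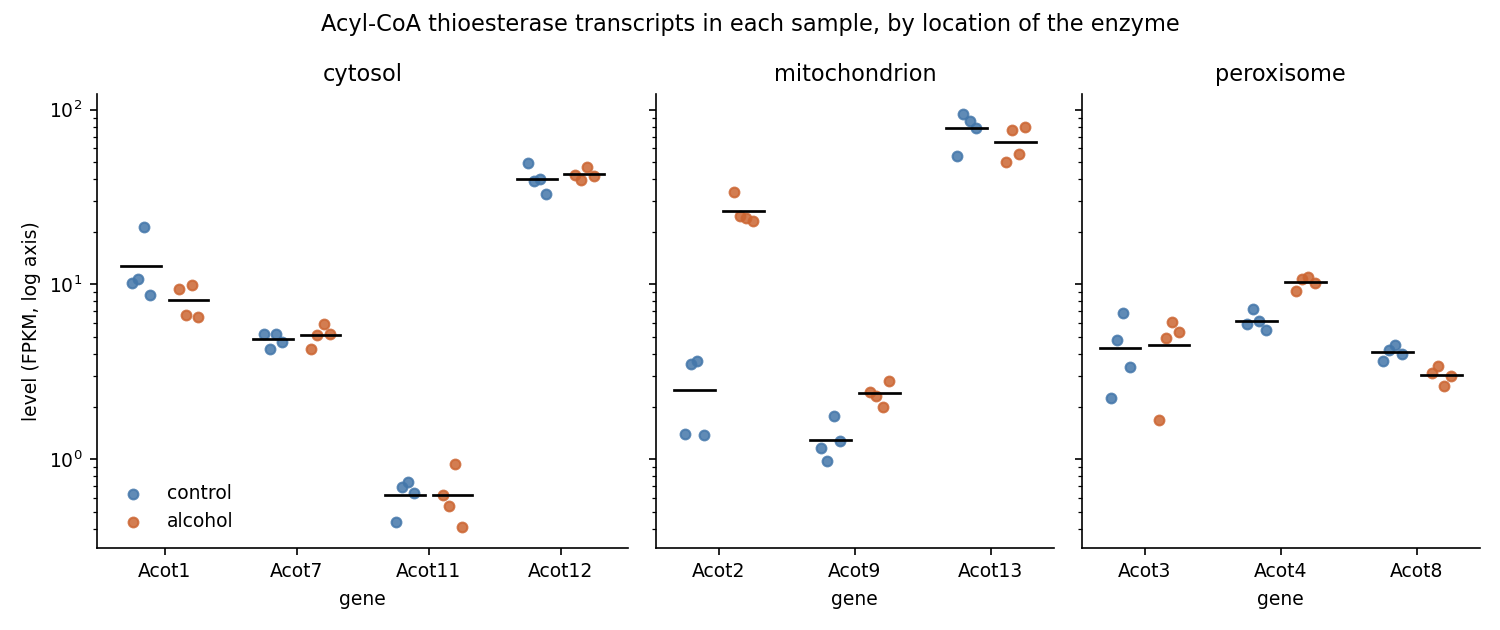
Level of each thioesterase in FPKM (log axis) in the 4 control and the 4 alcohol samples, 1 point per sample, with a line at the mean of each group; the panels sort the genes by compartment. The control and alcohol points of Acot2, Acot9, Acot4 and Acot8 do not overlap, and those of the other 6 genes do.

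In controls the order of the levels was Acot13 (78.1 ± 17.2 FPKM; SD, n = 4, as throughout), Acot12 (40.3 ± 6.80), Acot1 (12.7 ± 5.72), Acot4 (6.21 ± 0.728), Acot7 (4.84 ± 0.453), Acot3 (4.33 ± 2.01), Acot8 (4.08 ± 0.352), Acot2 (2.48 ± 1.27), Acot9 (1.29 ± 0.337) and Acot11 (0.626 ± 0.133). The ranges of neighbours overlapped from Acot7 through Acot9, so the order within that run is not resolved, while the neighbours above it and Acot11 below it did not overlap. Acot3, within the run (2.25 to 6.90 FPKM), did overlap with Acot4 (5.51 to 7.23 FPKM). The order of Acot4 and Acot3 is therefore not resolved either. With alcohol Acot2 moved from rank 8 to rank 3, below Acot13 and Acot12 and above Acot4, without overlap with its neighbours in that order. Acot13 and Acot12 held ranks 1 and 2 in both groups. The lengths recovered from the values differ from the merged exons of GENCODE M21 for some members (4010 against 2124 bases for Acot7, 3291 against 1997 for Acot8, 1559 against 3919 for Acot1), so levels between genes depend on the annotation used. Within a gene the length cancels. The exons counted still decide which reads enter, and how far the changes depend on that was not tested.

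Acot2 is the mitochondrial matrix member of the type I group and acts on long-chain acyl-CoA. Its control samples stood at 1.38, 3.51, 3.64 and 1.37 FPKM (replicates 1 to 4), and its alcohol samples at 33.9, 24.7, 24.1 and 23.1 FPKM. Every alcohol sample lay above every control. The alcohol mean of 26.4 ± 4.99 FPKM was 10.7 times the control mean. By limma the log2 change was 3.04 ± 0.24 (SE; adjusted p = 4.56e-06, and 4.04e-06 to 0.000274 over the alternatives). Only 26 of the 9228 tested genes (0.282%), Acot2 included, were called with a change at least that large upward. Behind these values stood 102 to 278 recovered reads in each control and 1890 to 2853 in each alcohol library.

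Acot1 is the cytosolic near copy of Acot2, next to it on chromosome 12, and cuts the same long-chain acyl-CoA. It did not share the rise. Control samples stood at 10.1, 10.7, 21.2 and 8.73 FPKM and alcohol samples at 9.38, 6.65, 9.87 and 6.53 FPKM. Control replicate 3 stood high, and the other 3 controls overlapped with the alcohol samples. The log2 change was -0.53 ± 0.24 (SE) and was not called (limma adjusted p = 0.0785, and 0.0117 to 0.245 over the alternatives). Without control replicate 3 it was -0.27 and not called. Settings that called it as lower included median-of-ratios scaling (-0.80), quantile normalization (-0.78) and leaving out control replicate 4 (-0.67).

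Because Acot1 and Acot2 differ in so little sequence, the bases that tell them apart matter for these values. Aligned over 1239 bases, their coding sequences (1260 and 1362 bases with the stop codon, GENCODE M21) were 95.2% identical. Of all 75-base windows of the Acot2 transcript, 21.2% also occurred in transcripts of another gene, nearly all of them in Acot1 (434 of the 450 shared windows, out of 2122). At 100 bases 17.1% were shared, all with Acot1. Reads inside those windows cannot be assigned by sequence, and no source used here says how the authors' counting treated them. A stretch that is in Acot2 and not in Acot1 lies at the start of the coding sequence. The Acot2 sequence has 123 bases, or 41 codons, before the base that aligns with the start codon of Acot1, and mitochondrial import signals lie at the start of a protein as a rule. The lines below give that start of Acot2, with the extra bases in capitals, and the first 60 coding bases of Acot1, with the 10 bases that differ from the aligned Acot2 stretch in capitals.
Acot2 coding start: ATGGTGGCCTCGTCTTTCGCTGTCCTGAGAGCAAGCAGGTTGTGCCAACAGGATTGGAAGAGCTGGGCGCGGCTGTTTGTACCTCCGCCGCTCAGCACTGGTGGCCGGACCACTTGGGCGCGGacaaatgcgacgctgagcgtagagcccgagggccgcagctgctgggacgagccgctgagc
Acot1 coding start: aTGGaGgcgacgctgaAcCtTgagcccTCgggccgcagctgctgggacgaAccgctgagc

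The balance within the pair differed between the groups. Acot2 made up 12.04%, 24.6%, 14.7% and 13.6% of the summed FPKM of Acot1 and Acot2 in the controls, and 78.3%, 78.8%, 71.0% and 78.0% in the alcohol samples. The groups did not overlap. The log2 ratio of Acot1 to Acot2 within a library, which does not move with the scaling of the library apart from the added 1 FPKM, was 1.97 ± 0.41 in controls and -1.60 ± 0.26 with alcohol. That difference of -3.57 had p = 0.0286 in an exact 2-sided permutation test, the lowest value possible with 4 against 4 (adjusted p = 0.0429 over the 6 pairs of members compared). The sum of both genes was 15.2 ± 6.66 FPKM in controls and 34.6 ± 6.07 FPKM with alcohol, and its lowest alcohol sample (29.7) lay above its highest control (24.8).

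The 250 bases before the start of each gene were less alike than the coding sequences: 48.0% of 227 aligned bases were identical. That share is no sign of likeness. Coding sequences of unlike members aligned at similar values, with end gaps scored differently (52.2% for Acot1 and Acot7, 48.0% for Acot11 and Acot13). The 2 windows are given because the genes moved apart (RefSeq, GRCm38.p6, both on the plus strand, Acot2 at chr12:83987611-83987860 and Acot1 at chr12:84009252-84009501). Capitals mark the matches found among 7 short motifs searched on both strands: AGGTCA (bound by many nuclear receptors), its direct repeat with 1 base between (the type bound by PPARA), TGATGCAA (C/EBP-ATF), TGACNNNGC (antioxidant response), CACGTG (E-box), TATAAA and AGAACA (glucocorticoid receptor).
Acot2 promoter: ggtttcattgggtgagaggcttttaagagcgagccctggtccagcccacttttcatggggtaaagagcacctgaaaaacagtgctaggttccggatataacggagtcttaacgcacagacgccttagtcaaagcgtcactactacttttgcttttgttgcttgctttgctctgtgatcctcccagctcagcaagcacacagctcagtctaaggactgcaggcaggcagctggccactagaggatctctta
Acot1 promoter: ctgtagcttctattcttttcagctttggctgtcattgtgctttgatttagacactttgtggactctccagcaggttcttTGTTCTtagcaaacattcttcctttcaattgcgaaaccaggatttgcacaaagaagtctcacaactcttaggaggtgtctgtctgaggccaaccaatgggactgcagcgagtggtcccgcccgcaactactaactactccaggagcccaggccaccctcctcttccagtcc
The Acot2 window held none of these letters, and the Acot1 window held 1 match, to AGAACA on the minus strand, 171 bases before the start. Among the first-listed promoters of 27025 genes, the share of windows with a match was 13.8% for AGGTCA, 0.037% for its direct repeat, 0.818% for TGATGCAA, 10.2% for TGACNNNGC, 6.05% for CACGTG, 12.97% for TATAAA and 16.2% for AGAACA. The direct repeat contains AGGTCA, so those matches overlap. Of the 10 members 9 had a promoter in the table, all but Acot13, and AGGTCA occurred in those of Acot4 and Acot12. TATAAA occurred in those of Acot4 and Acot9, CACGTG in Acot4 and Acot11, TGACNNNGC in Acot3, and AGAACA in Acot1 and Acot12. The direct repeat and TGATGCAA occurred in none of them.

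Acot2 and Acot1 open a row of 6 type I genes on the plus strand of chromosome 12, in the order Acot2, Acot1, Acot4, Acot3, Acot5 and Acot6 (83987861 to 84111349, GRCm38, GENCODE M21). All are protein-coding. The 4 members here are Acot2 (83987861 to 83993873), Acot1 (84009490 to 84018371), Acot4 (84038379 to 84048601) and Acot3 (84052144 to 84060402). The type II members, also protein-coding, lie elsewhere: Acot7 on chromosome 4 (152178134 to 152271855, plus strand), Acot11 on chromosome 4 (106744555 to 106804998, minus strand), Acot12 on chromosome 13 (91741512 to 91786148, plus strand), Acot13 on chromosome 13 (24817948 to 24831540, minus strand), Acot8 on chromosome 2 (164792765 to 164804882, minus strand) and Acot9 on chromosome X (155262443 to 155297654, plus strand). Within the row on chromosome 12, the genes at both ends, Acot2 and Acot6, had the largest changes on the log2(FPKM + 1) scale. Acot6, a peroxisomal enzyme that was not in the chosen set, rose from 0.140, 0.195, 0.167 and 0.108 FPKM in the controls to 3.37, 2.48, 2.73 and 2.65 FPKM with alcohol. No sample of one group came near the other, and the alcohol mean of Acot6 was 18.4 times its control mean. By limma its log2 change was 1.72 ± 0.09 (SE; adjusted p = 6.31e-07), and it had 12 to 22 reads in each control and 302 to 424 in each alcohol library. Acot6 passed the 1 FPKM minimum through its alcohol samples alone, so it could hardly have passed without differing. Only 1.86% of its 75-base windows occur in another gene. Acot5, also peroxisomal, was near the detection limit, with 0, 0, 1 and 0 reads in the controls and 17, 2, 2 and 3 with alcohol. Relative to the library totals that is a ratio of 21.9 (95% interval 3.57 to 900, counting error only), and its alcohol mean of 0.102 FPKM was 0.0404 FPKM once alcohol replicate 1 was left out. It was not called among all genes listed (limma adjusted p = 0.212).

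Genes on both flanks of the row were read for comparison, chosen after the values of the row were seen. Riox1, a histone demethylase gene on the Acot2 side, rose from 2.28 ± 0.185 to 4.62 ± 0.515 FPKM (log2 change 0.77, limma adjusted p = 0.000108). Heatr4, which lies between Riox1 and Acot2, averaged 0.0117 FPKM in the controls and 0.0211 FPKM in the alcohol samples. On the Acot6 side, Dnal1 stood at 0.0514 ± 0.00930 and 0.136 ± 0.0206 FPKM, under the 1 FPKM minimum, and was called higher among all genes listed (log2 change 0.11, limma adjusted p = 0.0013). Pnma1, beyond it, stood at 0.0124 and 0.0141 FPKM.

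**Figure D2:**
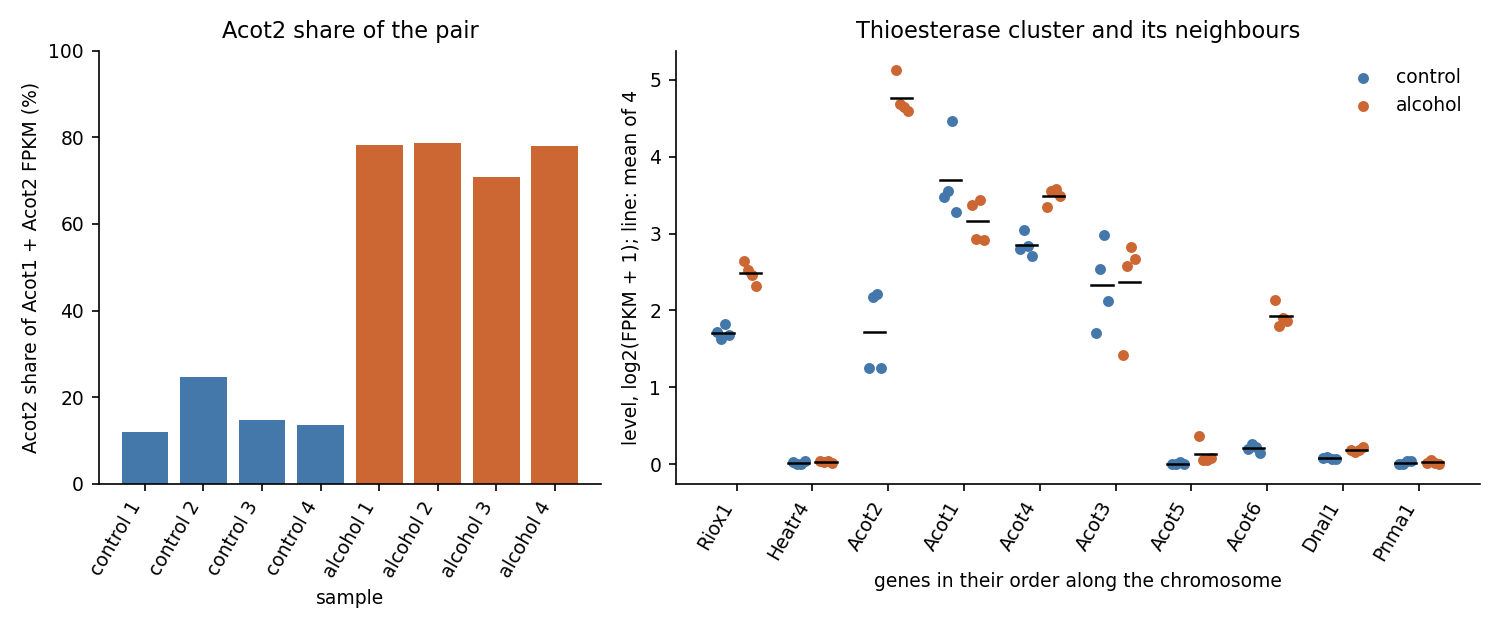
Left, the share of Acot2 in the summed FPKM of Acot1 and Acot2 in each sample, in percent. Right, level of the 6 type I genes and their neighbours as log2(FPKM + 1), 1 point per sample with a line at the group mean, in the order along chromosome 12. The share was 12.04% to 24.6% in controls and 71.0% to 78.8% with alcohol, and in the row Acot2 and Acot6 show the widest gaps between the groups.

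Among the peroxisomal members 1 rose, 1 fell and 1 was not called. Peroxisomal enzymes carry a short import signal at the very end of the protein, so the last 3 codons before the stop are given in capitals for the 3 members and for Acot6, with Acot1 and Acot2 beside them as type I enzymes of other compartments (GENCODE M21 coding sequences, each with its stop codon).
Acot8 coding end: aagcctcaggtgtcagagAGTAAGCTAtag
Acot3 coding end: aaaaagaagacaatcccaGCAAAACTGtga
Acot4 coding end: acccacagcagagcctccTGTAGACTGtag
Acot6 coding end: gaaaagcctgccaggcacAGCAAACTGtaa
Acot1 coding end: gagtgtttgcatgtgtctCCTAAAATAtaa
Acot2 coding end: ttccacaaacagttgggtAGCAAGAGTtag

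Acot4, a type I enzyme known in mouse for cutting succinyl-CoA and other dicarboxylic acyl-CoA, stood at 5.97, 7.23, 6.14 and 5.51 FPKM in the controls. With alcohol it stood at 9.20, 10.8, 10.95 and 10.2 FPKM. Every alcohol sample lay above every control, and the replicates lay close together. The mean rose from 6.21 ± 0.728 to 10.3 ± 0.787 FPKM, a log2 change of 0.65 ± 0.10 (SE; limma adjusted p = 0.000444).

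Acot8, the type II enzyme of peroxisomes, which takes acyl-CoA of many lengths and bile acid CoA esters, moved the other way. Its controls stood at 3.63, 4.19, 4.48 and 4.01 FPKM and its alcohol samples at 3.11, 3.40, 2.63 and 2.99 FPKM. The groups did not overlap, though the lowest control and the highest alcohol sample were close. By limma the log2 change was -0.33 ± 0.10 (SE; adjusted p = 0.0138). On the TPM scale, where each column is divided by its sum, it was -0.24 and not called (limma adjusted p = 0.0786).

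Their ratio within a library moves with the scaling only through the added 1 FPKM. The log2 ratio of Acot4 to Acot8 was 0.50 ± 0.15 in controls and 1.48 ± 0.17 with alcohol, without overlap (difference 0.98, exact permutation p = 0.0286, adjusted p = 0.0429). Every alcohol sample lay above every control for Acot4 and below every control for Acot8. The separation of the ratio and its lowest possible p were therefore fixed beforehand. The ratio gives the size of the difference and is no further test. Exons of Acot8 overlap Snx21 on the other strand, and those of Acot4 and Acot3 overlap the antisense gene 4732463B04Rik and the read-through gene Gm49366, so some of their reads are uncertain.

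Acot3, a peroxisomal long-chain enzyme, stood at 2.25, 4.81, 6.90 and 3.36 FPKM in the controls and at 1.68, 4.96, 6.07 and 5.37 FPKM with alcohol. Both groups spread over the same range, with replicate 1 lowest and replicate 3 highest in each. The log2 change was 0.04 ± 0.33 (SE; limma adjusted p = 0.931), and its sign turned with median-of-ratios scaling (-0.20). Its SE was the widest of the 10 members, so even a change of the size seen for Acot4 might not be detectable here. The log2 ratio of Acot3 to Acot4 was -0.51 ± 0.51 in controls and -1.12 ± 0.55 with alcohol, and did not differ by the exact permutation test (p = 0.171, adjusted p = 0.206).

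The other mitochondrial members did not follow Acot2 in size. Acot9, a mitochondrial enzyme that takes short and long acyl-CoA, stood at 1.15, 0.977, 1.76 and 1.26 FPKM in the controls and at 2.43, 2.29, 1.99 and 2.81 FPKM with alcohol. All alcohol samples were above all controls. By limma the log2 change was 0.57 ± 0.12 (SE; adjusted p = 0.0025), with 62 to 113 reads in each control and 141 to 193 in each alcohol library. With quantile normalization it was 0.26 and not called (limma adjusted p = 0.133). The log2 ratio of Acot2 to Acot9 rose from 0.54 ± 0.53 to 3.01 ± 0.28 (difference 2.47, exact permutation p = 0.0286, adjusted p = 0.0429). Acot10, a copy of Acot9 without introns whose coding sequence is 97.2% identical to it, had 1 read over the 4 control libraries and 1 over the 4 alcohol libraries.

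Acot13, also called Them2, is a small enzyme bound to mitochondria that works with the lipid transfer protein Pctp, and it was the most abundant of the 10. Its controls stood at 54.3, 94.2, 85.8 and 78.2 FPKM and its alcohol samples at 49.9, 76.0, 55.6 and 79.9 FPKM. The 3 lowest values were those of control replicate 1, alcohol replicate 1 and alcohol replicate 3, the same 3 libraries that had the lowest FPKM sums. The log2 change was -0.25 ± 0.20 (SE) and was not called (limma adjusted p = 0.29). Its sign turned to 0.13 once a trend on gene length was removed from each library, a setting chosen after seeing the data. At 686 bases Acot13 has the shortest recovered length of the members. Pctp, named here with its values known, was not called either, at 28.4 ± 8.14 and 24.7 ± 1.29 FPKM. The log2 ratio of Acot2 to Acot13 was -4.56 ± 0.36 in controls and -1.26 ± 0.53 with alcohol (difference 3.29, exact permutation p = 0.0286, adjusted p = 0.0429).

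The cytosolic members other than Acot1 did not differ by more than their replicates did. Acot12, which cuts acetyl-CoA and carries a lipid-binding START domain, stood at 49.3, 39.0, 39.9 and 32.8 FPKM in the controls and at 42.5, 39.3, 46.7 and 41.8 FPKM with alcohol. All alcohol samples lay within the control range. Its log2 change was 0.09 ± 0.13 (SE; limma adjusted p = 0.555), and -0.20 with median-of-ratios scaling. Acot7, a long-chain enzyme best known from the brain, stood at 4.26 to 5.21 FPKM in the controls and 4.29 to 5.92 FPKM with alcohol, with a log2 change of 0.07 ± 0.11 (SE; limma adjusted p = 0.615) that was -0.19 with median-of-ratios scaling.

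Acot11, also called Them1, is the other START domain enzyme and is known from brown fat. It lay under the 1 FPKM minimum, at 0.435, 0.694, 0.736 and 0.638 FPKM in the controls and 0.622, 0.536, 0.939 and 0.408 FPKM with alcohol. The alcohol samples spread to both sides of the controls. In the fit of all 21049 genes, where 24.2% were higher and 6.39% lower, its log2 change was -0.01 ± 0.11 (SE; limma adjusted p = 0.978). Its exons overlap Fam151a on the other strand, and 15.5% of its 75-base windows occur there. The log2 ratio of Acot11 to Acot12 was -4.65 ± 0.33 in controls and -4.75 ± 0.13 with alcohol (exact permutation p = 0.6, adjusted p = 0.6).

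**Figure D3:**
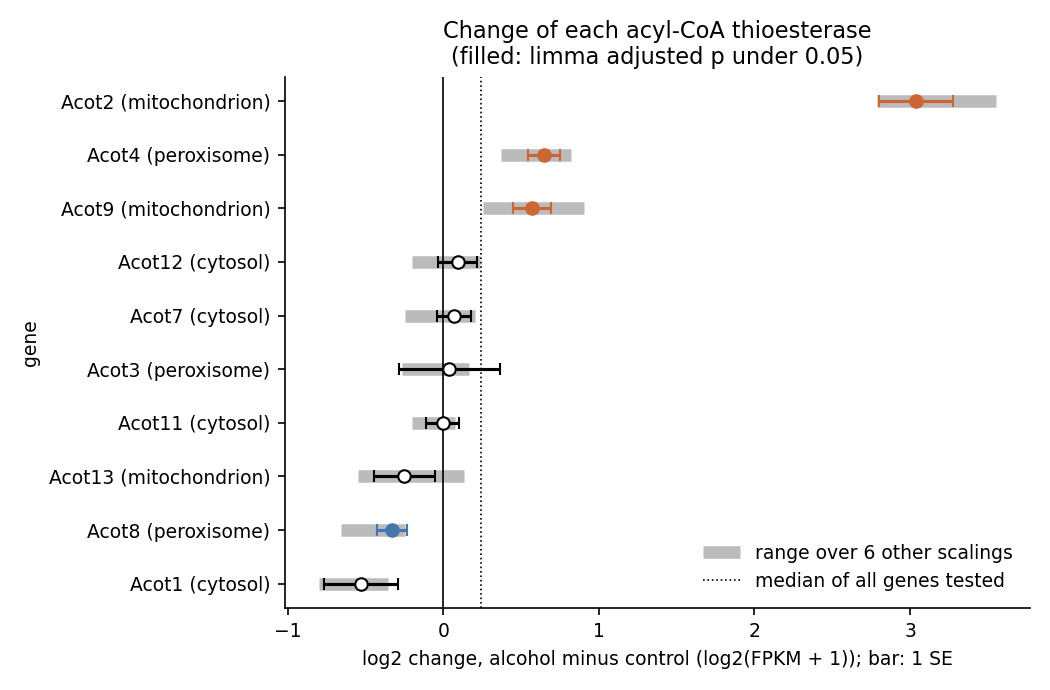
Log2 change of each thioesterase, alcohol minus control, on the log2(FPKM + 1) scale, with 1 SE as the error bar. Filled points passed a limma adjusted p of 0.05. Grey bars give the range over 6 other settings, which include limma voom on recovered reads and removal of a gene length trend beside other scalings. The upper ends for Acot2 (3.55) and Acot9 (0.90) are from limma voom, which does not add 1 FPKM. Acot2 lies at 3.04, Acot4 and Acot9 near 0.6 and Acot8 at -0.33, while the grey bars of Acot12, Acot7, Acot3, Acot11 and Acot13 cross 0.

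Summed over all 10 members, the family stood at 134 to 176 FPKM in controls and at 157 to 178 FPKM with alcohol, and these ranges overlap. The cytosolic members held 38.1% ± 7.47 of the family's summed FPKM in controls and 33.7% ± 4.35 with alcohol, the mitochondrial members 52.5% ± 7.24 and 55.8% ± 4.62, and the peroxisomal members 9.39% ± 0.482 and 10.6% ± 1.27. Each of these shares overlapped between the groups. Acot13 made up most of the mitochondrial sum and its spread is in these shares. Without Acot13 the sum of the other 9 was 62.4 to 89.9 FPKM in controls and 97.7 to 109 FPKM with alcohol, which do not overlap. Its mean went from 76.8 to 103 FPKM, and most of that difference is Acot2, whose own mean went from 2.48 to 26.4 FPKM.

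Of the tested genes with ordinary names, those whose pattern was most like Acot2 over the 8 samples were Fibin, Extl1 and Krt23. Likeness was the root mean square difference between deviations from each gene's own control mean, in log2 units, and was 0.35, 0.36 and 0.36. Their log2 changes were 2.96, 3.03 and 3.29, near that of Acot2 by construction, since the measure takes in the difference between the groups. Their control means were 0.225, 0.831 and 0.710 FPKM, so all passed the 1 FPKM minimum only through their alcohol samples. For Acot4 the most alike included Amz2 and Dgkz (0.07 and 0.08), for Acot9 they were Rnf39, Kcnj8 and Dcbld1 (0.10 each), and for Acot8 they were Anxa4, Tst and Capzb (0.05, 0.05 and 0.06). Kcnj8 and Dcbld1, with control means of 0.695 and 0.668 FPKM, also passed the minimum only through their alcohol samples.

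The thioesterases outside the chosen set moved in both directions. Of 8 in that list (Acot5, Acot6, Acot10, Them4, Them5, Them6, Hibch and Baat), 5 were tested, 4 were higher and 1 lower, where 44.2% and 13.0% of all genes were. Acot6 is 1 of the 4 and entered the test through its alcohol samples alone, as said above, so the count and the median log2 change of 0.38 (0.24 for all genes tested) lend no support to a direction. With median-of-ratios scaling 1 of them was higher, where 2386 of all 9228 genes tested were. Them4, a mitochondrial thioesterase, stood at 9.97 ± 1.02 and 12.7 ± 1.87 FPKM (log2 change 0.32, limma adjusted p = 0.0402), a call that was lost in 10 of the alternatives tried. Them6 stood at 1.84 ± 0.446 and 2.69 ± 0.363 FPKM (log2 change 0.39, limma adjusted p = 0.0235), and this call was lost in 6 alternatives. Baat, which joins bile acids to amino acids and is a relative of the type I enzymes, rose from 72.8 ± 4.74 to 95.8 ± 15.1 FPKM (limma adjusted p = 0.0219, lost in 3 alternatives: median-of-ratios scaling, without control replicate 3 and without alcohol replicate 1). Hibch, the hydrolase of valine breakdown, fell from 37.2 ± 4.40 to 27.7 ± 1.504 FPKM (limma adjusted p = 0.00748, lost on the TPM scale). Them5, a mitochondrial enzyme, had 2 to 4 reads in each control and 0 to 1 in each alcohol sample, which is too few to place its level. On these few reads it was called lower among all genes listed (log2 change -0.07, limma adjusted p = 0.0105).

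The enzymes that make acyl-CoA, the reverse of the thioesterase reaction, moved in both directions. Of 21 acyl-CoA synthetases and transporters with that activity, 15 were tested, 3 were higher and 5 lower (all genes: 44.2% and 13.0%), with a median log2 change of -0.01 against 0.24 for all genes. Acsl4, which prefers arachidonic acid, rose from 7.11 ± 2.98 to 31.5 ± 2.91 FPKM (log2 change 2.06, limma adjusted p = 2.32e-05), and Acsl3 rose from 2.81 ± 1.09 to 7.66 ± 0.896 FPKM. Acsl1, the main long-chain synthetase of the liver, fell from 175 ± 22.4 to 89.1 ± 12.6 FPKM (log2 change -0.96, limma adjusted p = 0.000198). Slc27a2, a very long-chain synthetase of peroxisomes and the endoplasmic reticulum, fell from 727 ± 81.1 to 398 ± 16.2 FPKM. On the TPM scale 2 of the list were lower, where 814 of all 9228 genes tested were.

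Genes that make and break down coenzyme A gave 2 higher and 4 lower of 13 tested, where 44.2% and 13.0% of all genes were, with a median log2 change of -0.05. Nudt7, a peroxisomal hydrolase that cuts coenzyme A and its esters at the diphosphate, fell from 136 ± 23.3 to 22.6 ± 4.09 FPKM (log2 change -2.53, limma adjusted p = 1.16e-06). Vnn1, a pantetheinase that recovers the vitamin part of coenzyme A, fell from 36.8 ± 11.5 to 14.5 ± 1.03 FPKM. Coasy, the last enzyme of coenzyme A synthesis, rose from 49.8 ± 6.43 to 73.4 ± 1.88 FPKM, and Enpp1 from 2.62 ± 0.532 to 4.54 ± 0.790 FPKM, calls that were lost with median-of-ratios scaling and with quantile normalization, respectively.

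Of 15 tested genes that bind acyl-CoA or pass the acyl group on, 4 were higher and 7 lower, beside 44.2% and 13.0% of all genes, with a median log2 change of -0.36. Dbi, the acyl-CoA binding protein of the cytosol, fell from 755 ± 103 to 317 ± 34.1 FPKM (log2 change -1.24, limma adjusted p = 4.79e-05). The carnitine carrier Slc25a20, the carnitine acyltransferase Cpt2 of the inner mitochondrial membrane and the peroxisomal tether Acbd5 fell by 0.86, 0.78 and 0.67 on the log2 scale. With quantile normalization none of this list was higher, where 2270 of all 9228 genes tested were.

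PPARA and its classic targets moved in both directions. Of 26 tested, 3 were higher (Pdk4, Cd36 and Plin5) and 12 lower, with a median log2 change of -0.26, against 44.2% higher, 13.0% lower and a median of 0.24 over all genes tested, and with the even split of all called genes under median-of-ratios scaling given above. Of the 12 lower, 4 (Slc25a20, Cpt2, Cpt1a and Vnn1) are counted in the lists above as well. Cyp4a14, Cyp4a10 and Fgf21, also picked with their values known, had log2 changes of 1.82, 1.07 and 1.30 and were not called (limma adjusted p = 0.0811, 0.106 and 0.0678). Ppara itself, picked with its values known, fell from 23.8 ± 4.195 to 9.66 ± 2.86 FPKM (log2 change -1.24, limma adjusted p = 0.000233). Fabp1, the fatty acid binding protein of hepatocytes, fell from 11137 ± 2786 to 2429 ± 271 FPKM. Pdk4, the kinase that shuts off pyruvate dehydrogenase, rose from 0.399 ± 0.170 to 4.39 ± 1.61 FPKM, and like Acot6 passed the 1 FPKM minimum only through its alcohol samples. Cd36, which takes fatty acids into cells, rose from 4.90 ± 1.59 to 20.3 ± 4.73 FPKM. The endothelial markers, which were higher with alcohol as given above, moved in the same direction as Cd36, a gene that endothelial cells also express, and their part in its rise was not tested.

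Among 5 tested partners and regulators of the family, 1 was higher and 1 lower, too few to set apart from the 44.2% and 13.0% of all genes. The bile acid receptor gene Nr1h4 rose from 62.3 ± 6.69 to 91.2 ± 12.0 FPKM (limma adjusted p = 0.00398), which did not pass with median-of-ratios scaling. Lpin1, a phosphatidate phosphatase that also works with PPARA in the nucleus, stood at 65.4 ± 10.9 and 29.3 ± 30.3 FPKM (log2 change -1.54, limma adjusted p = 0.0137). Its alcohol replicate 3 stood at 74.7 FPKM and the other alcohol samples at 13.4 to 14.7 FPKM.

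**Figure D4:**
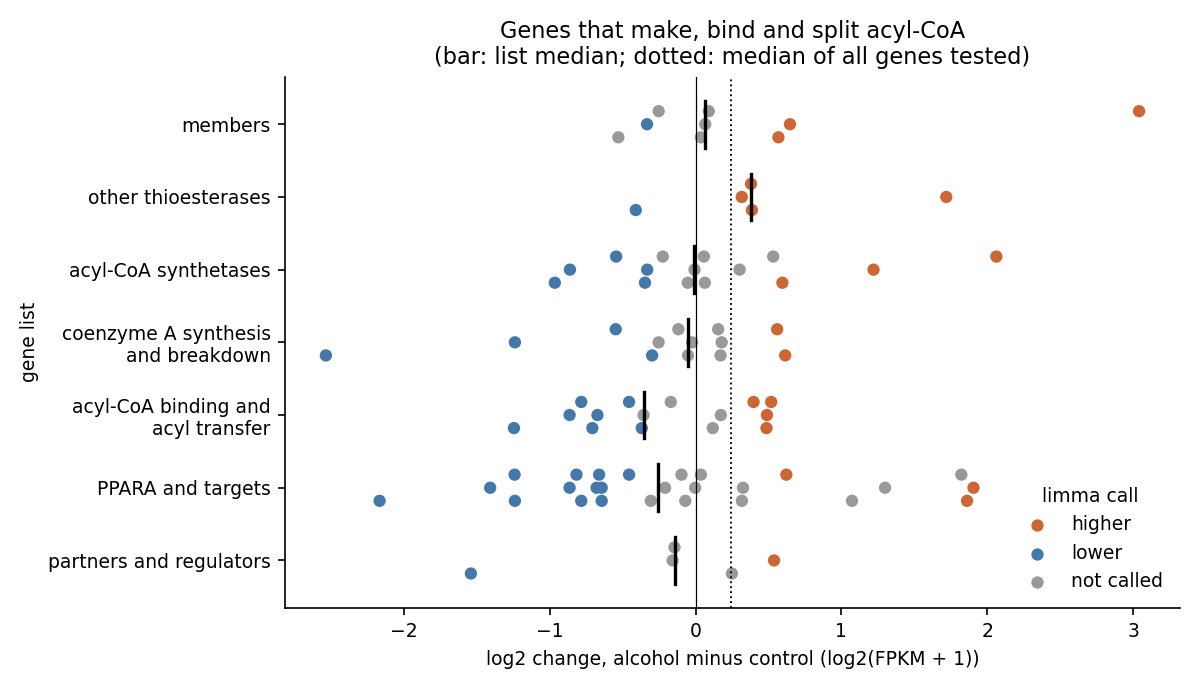
Log2 change, alcohol minus control, of each tested gene in the 9 tested members and the 6 lists around them, 1 point per gene coloured by its limma call, with a bar at each list's median and a dotted line at the median of all genes tested (0.24). On this log2(FPKM + 1) scale Acot2 at 3.04 lies beyond every gene of the other lists. That lead over Acot6 depends on the added 1 FPKM. The alcohol mean of Acot6 was 18.4 times its control mean, against 10.7 times for Acot2. Acot6 also had the larger log2 change of the pair with limma voom on recovered reads and with 0.1 FPKM added. The medians of the lists of acyl-CoA binding genes (-0.36) and PPARA targets (-0.26) lie below 0.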

How the data were processed

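The deposited values are FPKM, per the labels, in 1 column for each of 8 samples. Per the labels' protocols, mRNA libraries were made with a SMARTER kit; the submitters' processing notes name GRCm38 and mm10, and no source used here gives the aligner, counter, annotation or use of strand. From the deposited FPKM, whole reads were worked out for 21048 of 21049 genes (all but Mt2): a library total and gene length were found that made all 8 values whole to 1e-06 of a read. Lengths are the smallest possible ones. Groups were compared with limma 3.58.1 (R 4.3.3) on log2(FPKM + 1), with 9228 genes averaging 1 FPKM or more, a variance trend and Benjamini-Hochberg adjustment across them. Acot11 and other genes under that minimum were read from a fit of all genes. The script was tested on simulated data. Changes are alcohol minus control and understate those of low genes.

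Pairs of members were compared by exact permutation over all 70 assignments. Alternatives were other pseudocounts, filters, scalings, limma voom on recovered reads, a replicate block, single libraries left out, alcohol replicates 2 and 4 averaged and, chosen after seeing the data, removal of a length trend and of 3 libraries. Intervals on reads are exact at 95% and cover counting error only. Members and lists were chosen with earlier results of these data known. Named were all members, 6 relatives, up to 4 called genes of each list by smallest p, and the 3 genes most like each called member, of which 1 is not reported here. Annotation is GENCODE M21, matched by symbol, and promoters are RefSeq GRCm38.p6. Alignments used Biopython 1.88.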

Additional observations from a re-analysis of the deposited data

Results flagged for a closer look

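In 7 groups of 4 samples a single library stood apart from the other 3, by a gap past Dixon's 95% critical value for the gap over the group's range. Chance flags about 1 in 20 groups, and 70 were checked. That rate does not hold for a group with a single read, where the gap over the range is always 1. The Acot5 controls are such a group and are counted in the 7. Both groups of Acot10, each with 1 read in 1 library, also meet the rule but are not counted. Acot1 was 21.2 FPKM in control replicate 3 and 8.73 to 10.7 in the other controls. Acot2 was 33.9 FPKM in alcohol replicate 1 and 23.1 to 24.7 in the other alcohol samples. Acot5 was 0.288 FPKM in alcohol replicate 1 and 0.0338 to 0.0524 in the others, and 0.0187 FPKM (1 read) in control replicate 3 with no read in the other controls. Them4 was 11.5 FPKM in control replicate 1 and 9.30 to 9.65 in the others. In alcohol replicate 3, Dbi was 266 FPKM against 334 to 335, and Lpin1 was 74.7 FPKM against 13.4 to 14.7.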

How the results depend on the processing

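Acot2 and Acot4 kept their direction and their call under all 21 alternatives tried. Acot9 was no longer called with quantile normalization (log2 change 0.26), nor Acot8 on the TPM scale (-0.24). Acot1 was called as lower with median-of-ratios scaling (-0.80) and quantile normalization (-0.78), and ran from -0.67 to -0.27 with single libraries left out. The sign turned for the Acot7 log2 change (-0.19 with median-of-ratios scaling, -0.25 with quantile normalization, -0.042 with the gene length trend removed), Acot12 (-0.20 with median-of-ratios scaling) and Acot13 (0.13 with the length trend removed). It turned for the Acot3 log2 change at -0.20, -0.27 and -0.040 under those same 3 settings and at -0.047 with alcohol replicates 2 and 4 averaged, and for the Acot11 log2 change on the TPM scale (0.073) and with that average (0.039). With single libraries left out Acot3 ran from -0.18 to 0.35 and Acot11 from -0.094 to 0.060. The causes were not tested.

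Over all genes, 2386 were higher and 2446 lower with median-of-ratios scaling, and 2270 and 2275 with quantile normalization. On the TPM scale 4867 were higher and 814 lower, and with no filter 5101 and 1345 of 21049. With single libraries left out 3537 to 4362 were higher and 1000 to 1278 lower. With alcohol replicates 2 and 4 averaged the counts were 3790 and 1099, and with the length trend removed 4109 and 1145. Without the 3 libraries of lowest FPKM sum they were 4374 and 1192. The list counts below are to be read beside these. Members called lower were 0 on the TPM scale, 2 with median-of-ratios scaling or quantile normalization, and 1 to 2 with single libraries left out (2 without control replicate 4). Other thioesterases called higher were 1 with median-of-ratios scaling, 2 with quantile normalization, 2 with no filter on low values and 2 to 4 with single libraries left out (2 without control replicate 3 or alcohol replicate 1); those lower were 0 on the TPM scale and 2 with no filter. Synthetases called lower were 2 on the TPM scale, 3 with replicates 2 and 4 averaged and 3 to 6 with single libraries left out (3 without control replicate 3, alcohol replicate 2 or alcohol replicate 4). Coenzyme A genes called higher were 1 with median-of-ratios scaling, 1 with quantile normalization and 4 with the length trend removed, and those lower were 7 with median-of-ratios scaling. Acyl-CoA binding genes called higher were 1 with median-of-ratios scaling, 0 with quantile normalization, 2 without the 3 libraries of lowest FPKM sum, 2 with no filter and 2 to 4 with single libraries left out (2 without control replicate 4 or alcohol replicate 3). Partners called higher were 0 with median-of-ratios scaling; those lower were 2 with it, 2 with quantile normalization, 0 with no filter and 1 to 2 with single libraries left out (2 without control replicate 4).

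The replicate numbers did not pair the samples: deviations of same-numbered libraries correlated at 0.35, 0.22, 0.071 and 0.28, and not every sample correlated best with its own number. With a replicate block, 4307 genes were higher and 1380 lower, Acot1 was called as lower (-0.53) and 2 members were lower.

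Depth limits Acot5, Acot10 and Them5, with 0 to 17 reads in any library.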
